A study of Mus musculus with 16 samples.

Results

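The genes described here encode voltage-gated sodium channels, voltage-gated calcium channels and hyperpolarization-activated HCN channels of the mouse. They were taken by symbol among protein-coding genes (Scn, Cacna, Cacnb, Cacng and Hcn) and kept where at least 10 reads were counted in 4 or more of the 16 libraries. Of 44 such genes 40 were kept, beside 15396 protein-coding genes that pass the same minimum and 38924 genes in the files in all. They comprise 12 sodium channel genes (8 alpha and 4 beta subunits), 24 calcium channel genes (10 alpha1, 4 alpha2delta, 4 beta and 6 gamma subunits) and 4 HCN genes. The count minimum was applied over all groups and used no difference between them, but the gene families were chosen with earlier results of these data known. Scn11a lay just inside the minimum, with 10 or more counts in 5 libraries and 4 to 18 counts over all. Outside it were Scn4a (10 counts in 1 library), Cacng1 and Cacng6 (at most 8 counts each) and Scn10a (at most 3 counts). All 40 genes kept also passed the filter of the test.

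Polyadenylated RNA of the periaqueductal gray, a midbrain region of the descending pain control pathway, was sequenced from male mice, and the series addresses tolerance to morphine and the role of RGSz1. Its 4 groups of 4 libraries were knockout mice labelled with morphine, knockout naive mice, wild-type mice labelled with morphine and wild-type naive mice. RGSz1 is a regulator of G protein signalling encoded by Rgs20, and the labels give neither the targeting allele nor whether the deletion is limited to a cell type. They also give no strain, age, morphine dose or duration, and no vehicle group, so giving the drug and the drug itself cannot be told apart. Each library pooled punches from 2 animals, which the labels call a biological replicate.

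Rgs20 counts did not separate the genotype labels. In counts per mega counts of the library after TMM scaling (CPM), it averaged 12.1 ± 0.667 with morphine and 12.6 ± 0.95 without in libraries labelled knockout, and 13.1 ± 1.04 with morphine and 12.8 ± 0.824 without in wild type (SD, 4 libraries each). A count per gene cannot tell its exons apart, so "knockout" below means the label. Depth lay between 19.1 and 55.0 M (mega counts assigned to genes). Meningeal fibroblast genes stood highest in wild-type naive 2 and knockout morphine 3, with scores (mean log2 CPM of the markers, centred over the 16 libraries) of 2.33 and 1.91, and serotonin neuron genes were lowest in knockout naive 3 (score -1.75). General neuron markers were abundant in every library (summed CPM of 8 genes from 4815 to 6060).

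A voltage-gated sodium channel is built on a pore-forming alpha subunit that opens on depolarization and starts the action potential, with beta subunits that tune its gating and placement. Calcium channels pair a pore-forming alpha1 subunit with cytoplasmic beta and extracellular alpha2delta subunits and couple firing to calcium entry and transmitter release, while several proteins named gamma mainly serve as partners of AMPA receptors. HCN channels open on hyperpolarization, carry the pacemaker current and are sensitive to cyclic AMP. Opioid receptors act through G proteins, and presynaptic calcium channels are a known target of G protein beta-gamma subunits in this region.

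Levels between genes were compared as CPM per kb of merged exons, averaged over all 16 libraries. Among the highest were the sodium channel beta subunit Scn2b (74.7 CPM per kb), the pacemaker channel Hcn2 (72.6 CPM per kb) and the AMPA receptor partner Cacng7 (67.6 CPM per kb). Among the sodium channel pores, Scn1a had 40.4 CPM per kb, Scn2a 25.9 CPM per kb and Scn8a 22.8 CPM per kb, the main channels of adult central neurons. Scn3a, prominent in the embryonic brain, had 7.66 CPM per kb, and Scn9a, best known from pain-sensing neurons, had 3.00 CPM per kb. The atypical sodium-sensing channel Scn7a had 1.95 CPM per kb, and Scn11a, a channel of sensory neurons, had 0.0451 CPM per kb.

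Among the calcium channel pores the N-type Cacna1b was highest (19.3 CPM per kb), followed by the T-type Cacna1g (16.8 CPM per kb), the P/Q-type Cacna1a (13.9 CPM per kb) and the T-type Cacna1i (11.6 CPM per kb). The L-type pores of brain, Cacna1d and Cacna1c, had 4.40 and 2.64 CPM per kb, and those known from skeletal muscle and retina, Cacna1s and Cacna1f, had 0.129 and 0.0988 CPM per kb. Cacna2d2 (23.5 CPM per kb) and Cacna2d1 (19.5 CPM per kb), which bind gabapentin, led the alpha2delta subunits, and Cacna2d4, known from the retina, was the lowest (0.480 CPM per kb). The 4 beta subunits spanned 5.27 CPM per kb (Cacnb2) to 18.4 CPM per kb (Cacnb1). Hcn2 made up 82.5 ± 1.7% of the summed HCN level per kb in knockout libraries with morphine, 87.4 ± 1.46% in knockout naive, 84.2 ± 0.725% in wild-type morphine libraries and 85.9 ± 1.28% in the naive ones (SD, 4 libraries each). Hcn3 had 8.63 CPM per kb and Hcn4 1.91 CPM per kb.

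**Figure D1:**
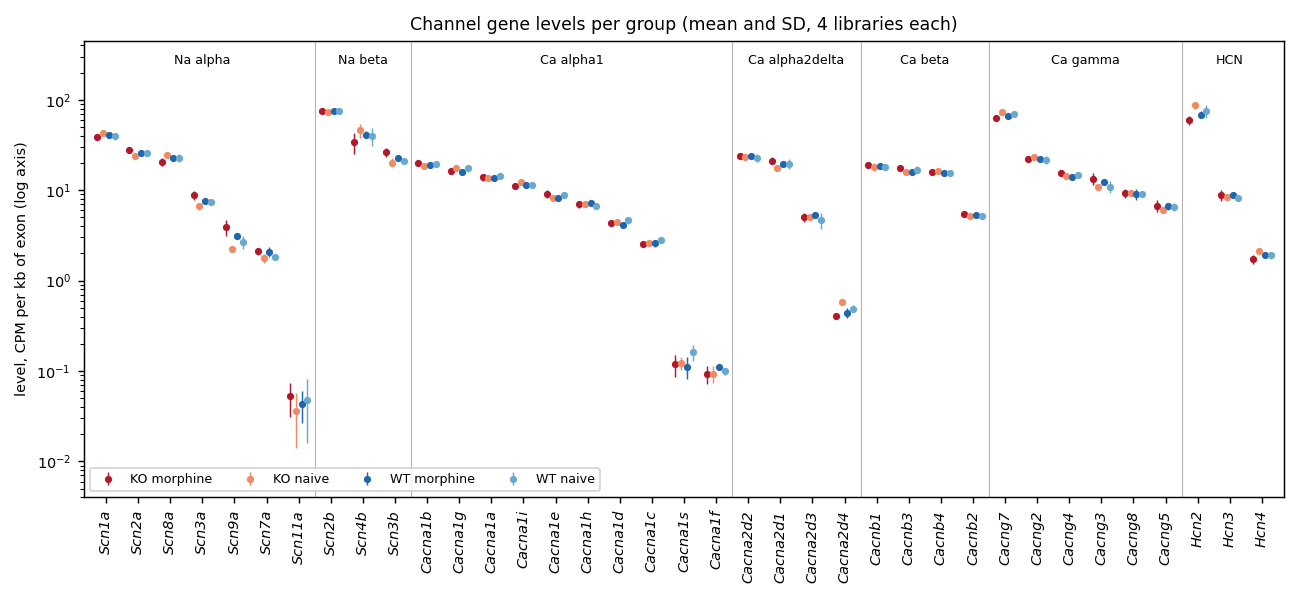
Level of the channel genes reported here as CPM per kb of exon on a log axis, by family, with the mean and SD of 4 libraries per group. The genes drawn span 74.7 CPM per kb (Scn2b) to 0.0451 CPM per kb (Scn11a), and the 4 groups lie close together for most genes.

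Spread between libraries differed by gene. The coefficient of variation of CPM over the 16 libraries was lowest for Scn2b (2.76%) and Cacnb2 (2.95%), and highest for the scarce Scn11a (49.5%). Scn9a (25.7%), Cacna1s (25.6%), Scn4b (19.9%) and Hcn2 (17.9%) also varied widely. The alpha1 genes other than Cacna1s and Cacna1f had values of 5.23 to 8.63%.

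With morphine, libraries labelled knockout had higher levels of Scn9a, Scn3a and Scn2a, of the beta subunit Scn3b and of Cacna2d1, and lower levels of Hcn2 and Hcn4, the adult sodium channel Scn8a, Cacna2d4 and Cacng7. These were 5 genes higher and 5 lower of 40 (25%), at a Benjamini-Hochberg adjusted p under 0.05 over all 18111 genes tested in edgeR's quasi-likelihood test (n = 4 per group). Of all genes tested, 11.5% were called in that comparison, 5.67% higher and 5.83% lower. At an unadjusted p under 0.05 the count was 19 of the 40, against 25.5% of all genes. The median log2 fold change of the 40 genes was 0.02, against -0.0003 over all genes, and the median size without sign was 0.12 on the log2 scale, against 0.10. By family, called genes were 3 higher and 1 lower of 8 sodium alpha subunits, 1 higher of 4 sodium beta subunits, none of 10 alpha1 subunits, 1 higher and 1 lower of 4 alpha2delta subunits, none of 4 calcium beta subunits, 1 lower of 6 gamma subunits and 2 lower of 4 HCN genes.

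The count depended on single libraries. It was 6 without knockout morphine 1, where 8.53% of all genes were called, and 6 without knockout naive 2, where 5.69% were. It was 20 without knockout morphine 3 (11 higher and 9 lower, against 12.3% of all genes). All 10 genes stayed called without knockout morphine 3, whose meningeal score was high, and 21 genes were called without it and wild-type naive 2 together, where 14.8% of all genes were. Between the same groups serotonin neuron markers were higher and oligodendrocyte markers lower, with their values after the channel genes.

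**Figure D2:**
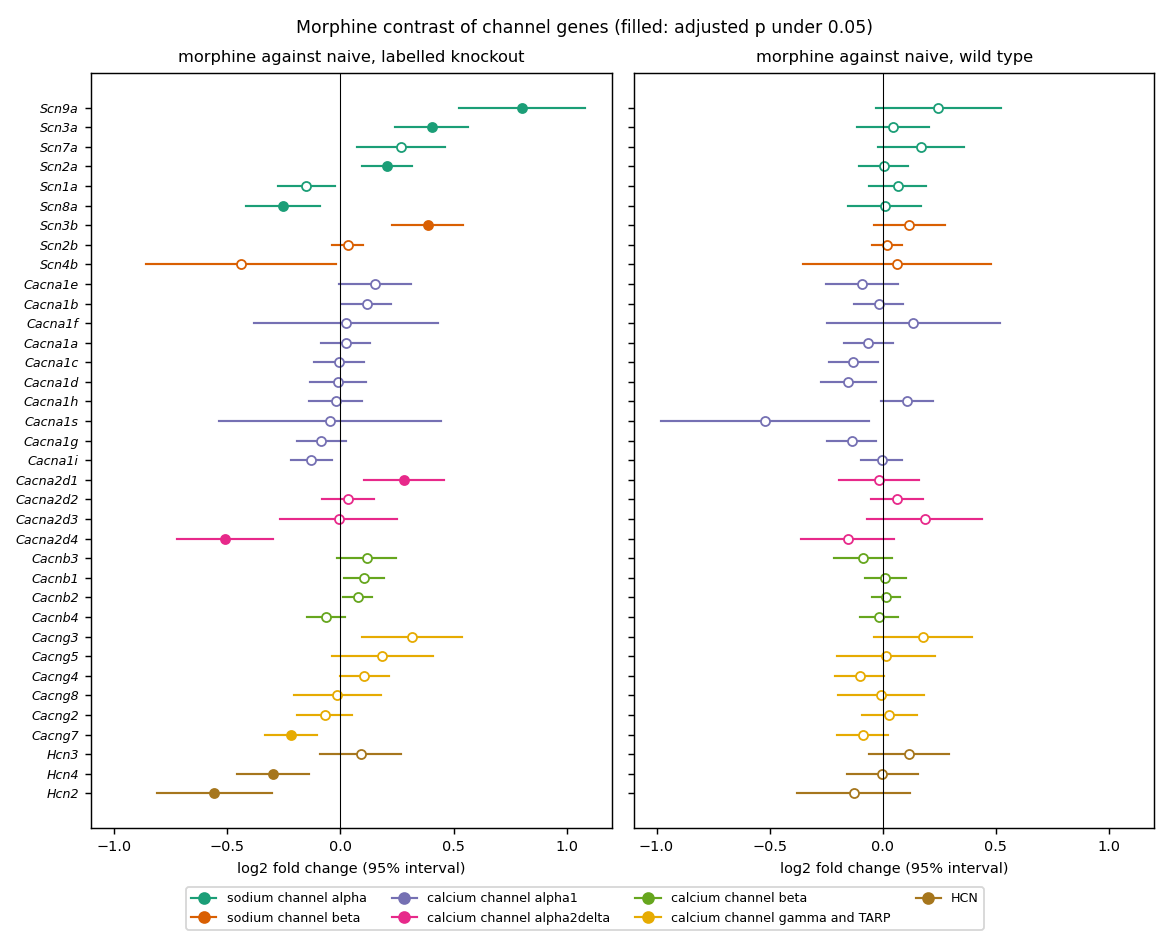
Log2 fold change of morphine against naive with its 95% interval, in libraries labelled knockout (left) and in wild-type libraries (right), for the channel genes reported here by family, with filled points called at an adjusted p under 0.05. Scn11a is left out because its interval is too wide for the axis. In knockout libraries 10 points are filled, from Scn9a (0.80) to Hcn2 (-0.56), and in wild-type libraries none is.

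Scn9a showed the largest difference of the 40 genes in that comparison. The gene (ENSMUSG00000075316) lies on chromosome 2, 66480080 to 66634962, minus strand (GRCm38, as for the positions below), and 180 exonic bases overlap the antisense gene Gm13629, so their reads cannot be told apart. Its level was 43.4, 58.2, 40.1 and 59.8 CPM in knockout morphine libraries, 31.1, 26.3, 27.8 and 30.4 CPM in knockout naive, 39.4, 40.5, 37.7 and 42.1 CPM in wild-type morphine, and 42.0, 30.6, 30.6 and 32.2 CPM in wild-type naive libraries. Every knockout morphine library lay above every knockout naive one, while in wild type 1 naive library lay as high as the morphine ones. The log2 fold change with morphine in libraries labelled knockout was 0.80 ± 0.13 (SE, 1.74-fold, adjusted p = 0.00198, edgeR).

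Scn3a (ENSMUSG00000057182) lies on the same chromosome (2, 65457118 to 65567627, minus strand). It stood at 112, 121, 92.3 and 115 CPM in knockout morphine libraries, 91.5, 74.6, 87.8 and 79.3 CPM in knockout naive, 101, 93.2, 94.4 and 93.9 CPM in wild-type morphine, and 93.9, 97.7, 94.3 and 84.9 CPM in wild-type naive libraries. The knockout groups did not overlap, but knockout morphine 3 was within 1 CPM of knockout naive 1. On the log2 scale the difference in knockout libraries was 0.40 ± 0.08 (1.32-fold, adjusted p = 0.00372, edgeR).

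Scn2a (ENSMUSG00000075318), on the plus strand of chromosome 2 (65620771 to 65767447), encodes an alpha subunit of the axon initial segment. Its level was 378, 367, 323 and 352 CPM in knockout morphine libraries, 322, 293, 322 and 293 CPM in knockout naive, 340, 327, 333 and 313 CPM in wild-type morphine, and 326, 339, 344 and 299 CPM in wild-type naive libraries. The knockout groups were separated by less than 1 CPM, and the wild-type groups overlapped. The log2 fold change in knockout libraries was 0.21 ± 0.05 (1.15-fold, adjusted p = 0.016), and its call was lost without knockout morphine 1 or 2 or knockout naive 2 or 4 (adjusted p up to 0.0649).

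Scn8a (ENSMUSG00000023033), on chromosome 15 (100869858 to 101045938, plus strand), encodes the main alpha subunit of nodes of Ranvier. Its level was 297, 302, 371 and 329 CPM in knockout morphine libraries, 366, 416, 381 and 388 CPM in knockout naive, 335, 364, 381 and 369 CPM in wild-type morphine, and 370, 313, 353 and 405 CPM in wild-type naive libraries. The knockout groups overlapped through knockout morphine 3. In knockout libraries the log2 fold change was -0.25 ± 0.08 (adjusted p = 0.0438, edgeR). The call was lost without knockout morphine 1, 2 or 4, knockout naive 2, 3 or 4, wild-type morphine 2, 3 or 4, or wild-type naive 1 or 3 (adjusted p up to 0.137).

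Scn3b (ENSMUSG00000049281), on chromosome 9 (40269217 to 40291618, plus strand), encodes a non-covalently bound beta subunit. Its level was 142, 157, 123 and 156 CPM in knockout morphine libraries, 125, 99.0, 116 and 102 CPM in knockout naive, 131, 124, 121 and 125 CPM in wild-type morphine, and 117, 116, 118 and 111 CPM in wild-type naive libraries. The knockout groups overlapped between knockout morphine 3 and knockout naive 1, and the wild-type groups did not overlap. Morphine against naive gave a log2 fold change of 0.39 ± 0.07 in knockout libraries (1.31-fold, adjusted p = 0.0044, edgeR). The beta subunits Scn4b (-0.44 ± 0.19 on the log2 scale, adjusted p = 0.173) and Scn2b (0.03 ± 0.03) did not pass.

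Scn9a, Scn3a and Scn2a belong to a run of 5 sodium channel genes on chromosome 2 (65457118 to 66784914). The other two members of the run did not pass in knockout libraries, with log2 fold changes of 0.27 ± 0.09 for Scn7a (adjusted p = 0.0705) and -0.15 ± 0.06 for Scn1a (adjusted p = 0.118). The summed level of the 8 alpha subunits came to 1294 ± 17.6 CPM in knockout libraries with morphine and 1305 ± 28.1 CPM in naive ones, with 1310 ± 21.9 CPM in wild-type libraries given morphine and 1275 ± 61.4 CPM in naive ones (SD, n = 4 each), differences within the spread of the libraries. Within that family, taken per kb, Scn2a made up 27.1 ± 2.06% with morphine and 23.4 ± 1.52% without in knockout libraries, and Scn9a 3.83 ± 0.779% with and 2.20 ± 0.213% without. Scn1a made up 37.3 ± 1.96% with morphine and 41.3 ± 1.75% without in knockout libraries, and Scn8a 20 ± 1.9% with and 23.8 ± 0.974% without.

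Hcn2 (ENSMUSG00000020331), on the plus strand of chromosome 10 (79716634 to 79736108), is the pacemaker channel that holds most of the family's level here. Its level was 166, 188, 219 and 184 CPM in knockout morphine libraries, 256, 298, 261 and 299 CPM in knockout naive, 190, 221, 232 and 235 CPM in wild-type morphine, and 255, 189, 234 and 284 CPM in wild-type naive libraries. The knockout groups stood apart, and the wild-type naive libraries spanned the whole wild-type morphine range. The log2 fold change in libraries labelled knockout was -0.56 ± 0.12 (0.68-fold, adjusted p = 0.00919, edgeR).

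Hcn4 (ENSMUSG00000032338), on chromosome 9 (58823412 to 58863175, plus strand), is known as the channel of the cardiac pacemaker and the thalamus. Its level was 8.98, 11.4, 11.3 and 10.5 CPM in knockout morphine libraries, 12.6, 13.0, 13.4 and 12.7 CPM in knockout naive, 11.1, 11.6, 11.6 and 12.4 CPM in wild-type morphine, and 13.0, 10.5, 11.6 and 11.7 CPM in wild-type naive libraries. The knockout groups did not overlap. Its log2 fold change in knockout libraries was -0.30 ± 0.08 (adjusted p = 0.0166, edgeR), and the call was lost without knockout morphine 1 (adjusted p = 0.0551). Hcn3 had 0.09 ± 0.09 on the log2 scale and was not called. Over the family the summed level came to 271 ± 28.8 CPM in knockout libraries with morphine and 363 ± 20.7 CPM in naive ones, with 306 ± 24.7 CPM in wild-type libraries given morphine and 323 ± 47.6 CPM in naive ones.

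**Figure D3:**
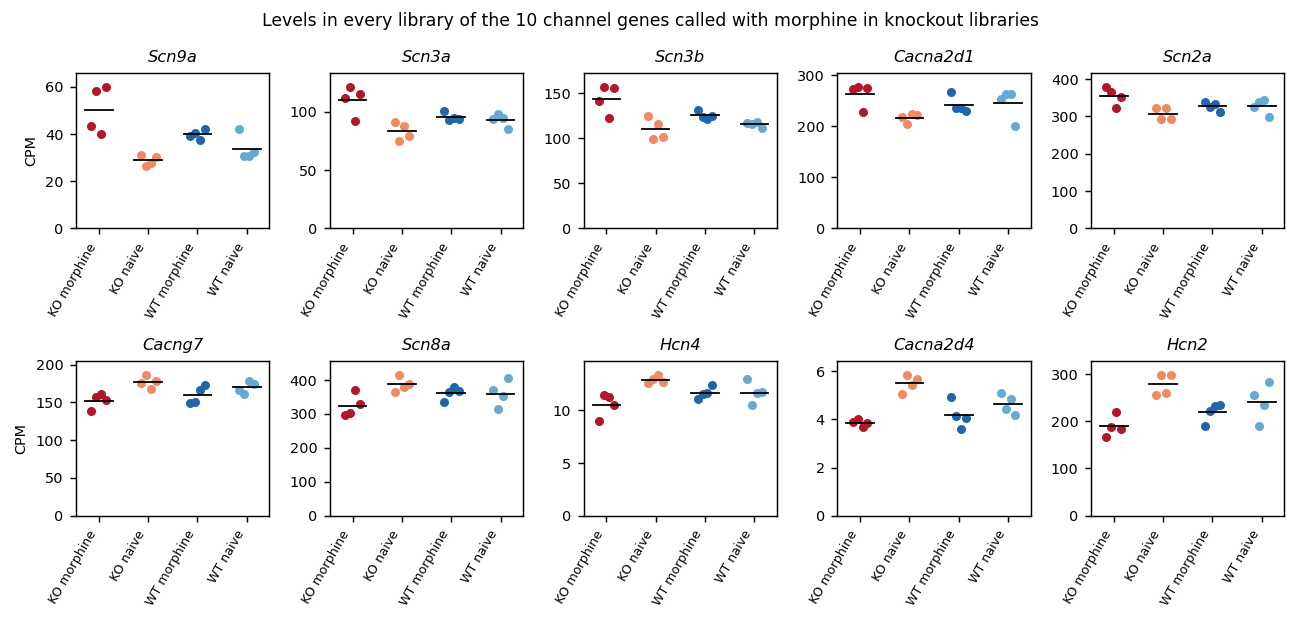
CPM in every library of the 10 channel genes called with morphine in libraries labelled knockout, with points for the 4 libraries of a group and a bar for their mean, on axes that start at 0. Scn9a is at 40.1 CPM or more in knockout morphine and at 31.1 CPM or less in knockout naive libraries, while Hcn2 is at 219 CPM or less in knockout morphine and at 256 CPM or more in knockout naive libraries.

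Among the calcium channel genes, none of the 10 pores was called in knockout libraries, with log2 fold changes from -0.13 (Cacna1i, adjusted p = 0.0636) to 0.15 (Cacna1e). The calls were in auxiliary subunits. Cacna2d1 (ENSMUSG00000040118), on chromosome 5 (15934691 to 16374511, plus strand), traffics the pores to presynaptic terminals. Its level was 273, 276, 228 and 275 CPM in knockout morphine libraries, 218, 204, 224 and 222 CPM in knockout naive, 266, 236, 236 and 229 CPM in wild-type morphine, and 253, 263, 263 and 200 CPM in wild-type naive libraries. Knockout morphine 3 and wild-type naive 4 lay far below the others of their group. The log2 fold change in knockout libraries was 0.28 ± 0.08 (adjusted p = 0.0402, edgeR). It was lost without knockout morphine 1, 2 or 4, any knockout naive library, wild-type morphine 2 or 3, or wild-type naive 1 (adjusted p up to 0.122).

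Cacna2d4 (ENSMUSG00000041460), on chromosome 6 (119236526 to 119352407, plus strand), had 73 to 280 counts per library. Its level was 3.89, 4.02, 3.67 and 3.86 CPM in knockout morphine libraries, 5.05, 5.86, 5.44 and 5.68 CPM in knockout naive, 4.93, 4.13, 3.61 and 4.04 CPM in wild-type morphine, and 5.11, 4.43, 4.86 and 4.18 CPM in wild-type naive libraries. The knockout groups did not overlap and the wild-type groups did. In knockout libraries the log2 fold change was -0.51 ± 0.10 (0.70-fold, adjusted p = 0.00384, edgeR).

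Cacng7 (ENSMUSG00000069806), on chromosome 7 (3332955 to 3368221, plus strand), had 138, 157, 161 and 154 CPM in knockout morphine libraries, 176, 187, 168 and 179 CPM in knockout naive, 149, 150, 167 and 173 CPM in wild-type morphine, and 166, 162, 178 and 175 CPM in wild-type naive libraries. The knockout groups did not overlap. Its log2 fold change in knockout libraries was -0.22 ± 0.05 (adjusted p = 0.0149, edgeR), and the call was lost without knockout naive 2 (adjusted p = 0.0598). Its relative Cacng3 had 0.32 ± 0.10 on the log2 scale without passing (adjusted p = 0.0603), and the remaining gamma genes lay between -0.07 and 0.19 on the log2 scale. In knockout libraries the groups did not overlap for 11 of the 40 genes, 6 higher and 5 lower, where 17.1% of all genes did not (8.27% higher and 8.78% lower). Cacnb2, Cacng3 and Cacna1i were among these without being called, and Scn3b and Scn8a were called with overlapping groups.

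Promoters are shown for called genes that moved in opposite directions, 250 bases before the start of the gene from RefSeq on GRCm38.p6, 5′ to 3′ on the gene's own strand. Capitals mark a GC box (GGGCGG on either strand, overlapping matches included). Scn9a lies at chr2:66634963-66635212 on the minus strand, Cacna2d1 at chr5:15934441-15934690, Hcn2 at chr10:79716384-79716633 and Hcn4 at chr9:58822699-58822948, all but Scn9a on the plus strand.
Scn9a: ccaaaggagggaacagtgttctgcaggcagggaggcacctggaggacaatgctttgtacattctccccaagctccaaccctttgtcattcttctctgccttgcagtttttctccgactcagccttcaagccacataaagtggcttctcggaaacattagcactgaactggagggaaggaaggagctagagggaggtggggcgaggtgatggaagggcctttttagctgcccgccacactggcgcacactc
Cacna2d1: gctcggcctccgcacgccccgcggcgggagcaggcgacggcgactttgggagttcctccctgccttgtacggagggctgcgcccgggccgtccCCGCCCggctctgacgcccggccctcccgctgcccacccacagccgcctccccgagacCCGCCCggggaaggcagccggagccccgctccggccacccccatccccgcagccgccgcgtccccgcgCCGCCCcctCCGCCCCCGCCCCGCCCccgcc
Hcn2: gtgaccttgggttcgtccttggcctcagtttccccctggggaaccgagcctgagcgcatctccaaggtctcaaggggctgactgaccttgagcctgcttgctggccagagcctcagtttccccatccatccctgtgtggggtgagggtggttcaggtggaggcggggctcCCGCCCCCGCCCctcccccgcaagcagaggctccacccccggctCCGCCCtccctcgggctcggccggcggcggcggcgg
Hcn4: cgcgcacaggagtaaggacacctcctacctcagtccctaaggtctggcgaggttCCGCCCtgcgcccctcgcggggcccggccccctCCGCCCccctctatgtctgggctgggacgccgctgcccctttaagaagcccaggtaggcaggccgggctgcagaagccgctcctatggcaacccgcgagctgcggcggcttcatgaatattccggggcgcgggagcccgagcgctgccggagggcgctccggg
The Scn9a window has a GC content of 54.4% and no GC box. The Cacna2d1 window has 82.4% and 6 boxes, the Hcn2 window 70.4% and 3 boxes, and the Hcn4 window 71.2% and 2 boxes, against a median GC content of 52.4% over all promoters. The window of Cacng7, which was called lower and is not printed, has a GC content of 58% and 1 GC box. A GC box was found in 17 of the 29 channel genes with a promoter entry and in 4 of the 7 called ones, against 32.7% of 32851 promoters. A channel gene counted if any of its promoter entries held the box, while the 32.7% is of single entries. The channel gene counts and that share are therefore not on the same footing. The cyclic AMP response element TGACGTCA was found in none of the 29, against 1.55% of all promoters. These matches are a description of letters in a window.

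Markers of particular cells, in lists chosen with earlier results of these data known, differed between the same libraries. In knockout libraries 9 of 10 serotonin neuron genes were called higher with morphine (Tph2, the enzyme of serotonin synthesis in neurons, by 2.61 ± 0.68 on the log2 scale). The estimates of all 10 lay above 0, and 11.5% of all genes were called in that comparison. The summed level of the serotonin neuron genes spanned 595 to 1788 CPM with morphine and 167 to 408 CPM in naive knockout libraries. Of the oligodendrocyte genes 8 of 11 were called lower (Mag, a myelin protein, at -0.69 ± 0.13), and all 11 had estimates below 0. Their summed levels were 7152 to 9105 CPM with morphine and 10300 to 11870 CPM in naive libraries. Of the motor and cholinergic neuron genes 1 of 5 tested was called higher (Prph, 1.29 ± 0.37). All 5 had estimates above 0 (1.21 to 2.70 on the log2 scale) and an unadjusted p under 0.05 in edgeR. Their summed levels were 18 to 83.4 CPM with morphine and 8.99 to 17.2 CPM in naive libraries. General neuron genes were called higher in 2 of 8 (Syt1 by 0.34 and Stmn2 by 0.22 on the log2 scale), with 5 estimates above 0 and 3 below. Their summed levels were 5332 to 5895 CPM with morphine and 5261 to 5669 CPM in naive libraries.

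In bulk tissue, fewer cells of a type and less RNA per cell cannot be told apart. With morphine in knockout libraries, 4 of 6 endothelial genes and 2 of 6 pericyte and smooth muscle genes were called lower. Among microglia and among astrocytes 1 of 6 was called lower. Estimates below 0 numbered 6, 2, 5 and 2 of 6 in that order. None of 6 was called among oligodendrocyte precursors and among meningeal fibroblasts, and none of the 3 tested among skeletal muscle genes, of which Ckm was at 0 in 2 libraries. In wild-type libraries, where 4.41% of all genes were called, 4 of 6 endothelial genes were called lower with morphine. In the same comparison 1 of 6 was called lower among microglia, pericyte and smooth muscle genes and oligodendrocyte precursors. Estimates below 0 in wild-type libraries numbered 6, 5, 5 and 3 of 6 in that order. No other list held a called gene there, and summed levels of serotonin neuron genes were 732 to 950 CPM with morphine and 268 to 915 CPM in naive libraries.

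**Figure D4:**
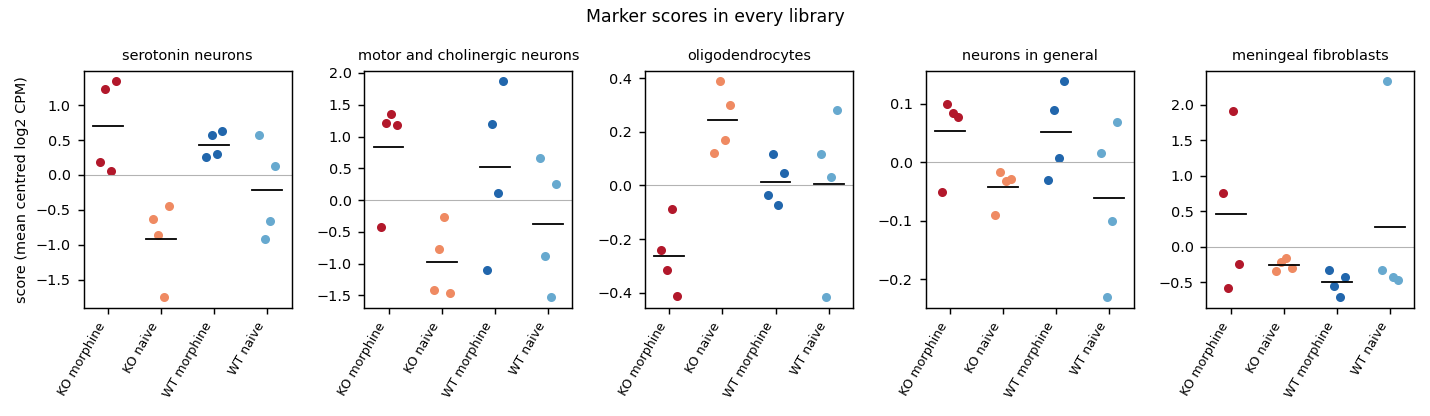
Score of 5 marker lists (mean log2 CPM of the markers, centred over the 16 libraries) in every library, with a bar for the group mean. The serotonin neuron score lies above 0 in all 4 knockout morphine libraries and below 0 in all 4 knockout naive ones, the oligodendrocyte score the other way round, and 2 libraries stand high for meningeal fibroblasts.

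When the serotonin neuron score entered the fit, 1 channel gene remained called in knockout libraries, Hcn2 (-0.75 ± 0.17, adjusted p = 0.0461), where 1.96% of all genes were called. The median SE of the 40 genes was then 0.105, against 0.0746 without the score. Scn9a had 0.32 ± 0.11 (adjusted p = 0.116), while Scn3a (0.37), Scn3b (0.31), Cacna2d1 (0.31), Scn2a (0.28), Cacng7 (-0.28), Scn8a (-0.32), Hcn4 (-0.43) and Cacna2d4 (-0.56) kept the sign of their log2 fold change and were not called.

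With the oligodendrocyte score in the fit, an addition made after the data were seen, none of the 10 stayed called. Only Cacna1d was called among the 40 (-0.22, adjusted p = 0.0487), where 3.9% of all genes were. Of the 40 genes, 27 kept the sign they had without a score, against 30 with the serotonin neuron score. Scn9a (0.74 ± 0.22) and Cacna2d4 (-0.47) kept most of their size, Hcn2 had -0.15, Cacna2d1 0.04 and Scn2a 0.06, and Scn8a was at 0.0008 on the log2 scale. Scores of the 2 lists moved with the groups, and their part in the channel differences was not tested.

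**Figure D5:**
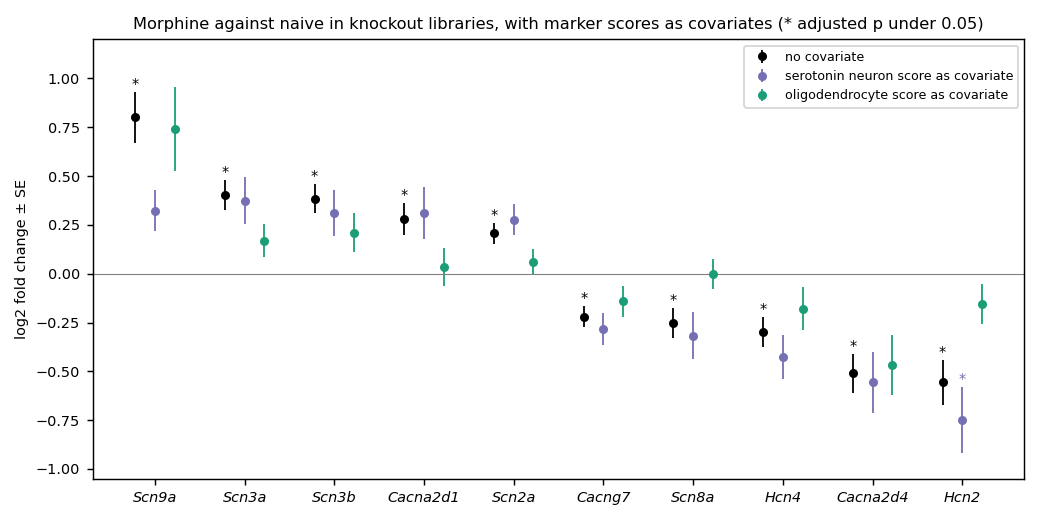
Log2 fold change ± SE of morphine against naive in libraries labelled knockout for the 10 called genes, with no covariate (black), with the serotonin neuron score (purple) and with the oligodendrocyte score (green), and a star for an adjusted p under 0.05. Scn9a is at 0.80, 0.32 and 0.74 in that order, and Hcn2 at -0.56, -0.75 and -0.15.

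In wild-type libraries none of the 40 channel genes was called with morphine (edgeR's quasi-likelihood test, adjusted p under 0.05), where 4.41% of all genes were. DESeq2's Wald test and limma-voom also called none, and 4 genes had an unadjusted p under 0.05 in edgeR, against 20.1% of all genes. These were pores of calcium channels: Cacna1g (-0.14 ± 0.05, adjusted p = 0.139), Cacna1d (-0.15 ± 0.06, adjusted p = 0.142), Cacna1c (-0.13 ± 0.05, adjusted p = 0.16) and Cacna1s (-0.52 ± 0.22, adjusted p = 0.191). Exons of Cacna1d and Cacna1s overlap those of Chdh and Gm37759, so reads of the shared stretches cannot be told apart. Cacna1d passed without wild-type naive 4 (-0.20, adjusted p = 0.0346), where 6.88% of all genes did. The estimates of all 12 sodium channel genes were above 0, with a median of 0.06 on the log2 scale, against -0.007 over all genes and -0.02 over the 24 calcium channel genes, and none passed. General neuron genes also lay above 0 in 7 of 8 there, with a median of 0.13, and none was called. Their score was lowest in wild-type naive 2 (-0.23). Whether the sodium channel estimates follow these markers was not tested. Of the genes called in knockout libraries, Scn9a had a 95% interval of -0.03 to 0.52 and Hcn2 of -0.38 to 0.12 in wild-type libraries. For 1 gene, Scn3b, the groups did not overlap, where 11% of all genes did not.

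Between libraries labelled knockout and wild type, none of the 40 genes was called in naive mice, where 0.906% of all genes were, and none under morphine, where 0.53% were. Unadjusted p was under 0.05 for 3 and 6 of the 40 in edgeR (12.9% and 9.64% of all genes), DESeq2 and limma-voom called none, and no gene had groups that did not overlap (8.13% and 5.27% of all genes). The smallest adjusted p in naive mice was that of Cacna2d4 (0.25 ± 0.10, adjusted p = 0.269). Under morphine it was that of Cacng4, an AMPA receptor partner (0.16, adjusted p = 0.29). Without knockout morphine 3 Scn3a was called under morphine (0.28, adjusted p = 0.049), where 0.621% of all genes were. Averaged over treatments none was called either, where 1.53% of all genes were, and none had an unadjusted p under 0.05 (10.5% of all genes). The smallest p there belonged to Cacna1c (-0.06, adjusted p = 0.621) and Cacnb4 (0.05, adjusted p = 0.651).

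The morphine responses of the genotype labels were compared directly through their interaction. None of the 40 genes passed, and 0% of all genes did. By unadjusted p 14 of the 40 were under 0.05 in edgeR, against 12.1% of all genes, and DESeq2 and limma-voom called none of the 40. Over all genes DESeq2 called 106 (0.664%) and limma-voom 0. The smallest p was that of Scn3a (0.36 ± 0.11, unadjusted p = 0.00396, adjusted p = 0.258), then Scn9a (0.56 ± 0.18, unadjusted p = 0.00895, adjusted p = 0.291). With the oligodendrocyte score in the fit, 0 of the 40 had an unadjusted interaction p under 0.05 in edgeR, and 15 had with the serotonin neuron score. Of the 11 oligodendrocyte genes themselves, 10 were under 0.05 without a score, and all 11 had interaction estimates below 0. The part of cell markers in the interaction was not tested. Without knockout morphine 3 the interaction of Scn3a was called (0.43, adjusted p = 0.0386), among 56 genes of all tested (0.305%). The calls in knockout and their absence in wild-type libraries are therefore not shown to differ.

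Averaged over both genotypes, 9 channel genes were called with morphine, 5 higher and 4 lower, where 17.1% of all genes were (9.02% higher and 8.03% lower). The higher ones were Scn9a (0.52, adjusted p = 0.00166), Scn3b (0.25, adjusted p = 0.00415), Scn3a (0.22, adjusted p = 0.00933), Scn7a (0.22, adjusted p = 0.0272) and Cacng3 (0.25, adjusted p = 0.0286). The lower ones were Cacna2d4 (-0.33, adjusted p = 0.00342), Cacng7 (-0.15, adjusted p = 0.01), Hcn2 (-0.34, adjusted p = 0.0121) and the T-type pore Cacna1g (-0.11, adjusted p = 0.0438). Cacng3 had 33.6, 42.1, 31.4 and 41.3 CPM in knockout morphine libraries, 29.1, 30.4, 30.2 and 29.6 CPM in knockout naive, 31.7, 33.7, 36.5 and 35.2 CPM in wild-type morphine, and 35.6, 24.7, 29.5 and 32.2 CPM in wild-type naive libraries. Cacna1g lost its call when any 1 of 12 libraries was left out (all knockout morphine and knockout naive ones but those numbered 4, all wild-type morphine ones, and wild-type naive 2 and 3). Cacng3 lost it without knockout morphine 2 or 4, knockout naive 1 or 4, wild-type morphine 3 or 4 or wild-type naive 3, and Scn7a without knockout morphine 2 or 4, knockout naive 2 or 4 or wild-type morphine 2 or 3. No gene of this average stayed called with the serotonin neuron score in the fit, where 2.73% of all genes were called.

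Of 36 genes for proteins that bind, anchor or regulate these channels, 7 were called higher and 4 lower with morphine in knockout libraries. In wild-type libraries 1 was called lower. Of all genes 11.5% and 4.41% were called in these comparisons. With 1 library left out, the 11 calls in knockout libraries became 4 to 14. They were 4 without knockout morphine 2, knockout naive 2 or knockout naive 4, where 6.8%, 5.69% and 7.15% of all genes were called. They were 6 without knockout morphine 1 or 4, where 8.53% and 7.14% of all genes were. In wild-type libraries the count was 0 to 2, with 378 to 1252 genes called of all. Among 9 sodium channel partners, Ank3, which anchors the channels at the axon initial segment, was lower (-0.25 ± 0.06, adjusted p = 0.011), as was the spectrin Sptbn4 (-0.15 ± 0.04, adjusted p = 0.0218). The ubiquitin ligase Nedd4 was higher (0.11 ± 0.03, adjusted p = 0.0438). Among 20 calcium channel partners 6 were called higher and 1 lower. The higher ones included the active zone scaffolds Erc2 (0.21 ± 0.05, adjusted p = 0.00768) and Erc1 (0.15 ± 0.04, adjusted p = 0.0211) and the adaptor Stac (0.58 ± 0.15, adjusted p = 0.0213). Of 4 HCN partners, Pex5l, which encodes the HCN trafficking subunit TRIP8b, was lower (-0.54 ± 0.10, adjusted p = 0.00288). Rem1, a small GTPase that inhibits calcium channels, was the gene lower in wild-type libraries (-0.90 ± 0.25, adjusted p = 0.0484).

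Calls of Ank3, Erc2 and Pex5l held without any single library. Sptbn4 lost its call without knockout morphine 1 or 2 or knockout naive 2, Erc1 without those or knockout naive 4, and Stac without knockout morphine 4 or knockout naive 4. The calls of Nedd4 and Rem1 were lost when any 1 of 11 and any 1 of 14 libraries was left out. The 4 genes of the NALCN leak channel complex held no call in either genotype, and Nalcn was called in the average only (0.11 ± 0.03, adjusted p = 0.00787), a gene named after its values were seen. With the serotonin neuron score in the fit no partner stayed called in knockout libraries, where 1.96% of all genes were called. Pex5l was then at -0.60 (adjusted p = 0.0539).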

How the data were processed

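The deposited files hold read counts per gene, 1 file per library, made by the authors. The submitters' processing notes name HTSeq, limma and the mm10 build, while the sources used here give no aligner, annotation release or strand setting. Per the labels' protocols, libraries were made with the TruSeq RNA kit v2, which does not mark the strand, so reads of overlapping genes cannot be told apart. HTSeq's tallies of reads not counted to any gene, for whatever reason (38.2 to 40.6% of the total), stayed out of library sizes and tests. Counts cover depths of 19.1 to 55.0 M (mega counts).

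Symbols, exon lengths and coordinates are those of GENCODE M21 (GRCm38); 37607 of 38924 identifiers matched. After filterByExpr (minimum count 10) and TMM scaling, 1 robust model over the 16 libraries, with a coefficient per group, was fitted with edgeR 4.0.16 in R 4.3.3. Contrasts used its quasi-likelihood test, and p was adjusted by Benjamini-Hochberg over 18111 genes with a threshold of 0.05. The common biological coefficient of variation was 0.0835. Fold changes are log2 ± SE. All pairs of replicates differed by more than sampling noise (lowest chi-square per gene 3.73). The p-values judge differences between groups against the spread between these libraries, each a pool of 2 animals.

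Values in every library are given for genes called in at least 1 comparison of 2 groups, partner genes are the called ones (at most 4 per list, smallest p), and markers at most 3 per list. The channel genes, partner lists and marker lists were chosen with earlier results of these data known. Alternatives were DESeq2's size factors and Wald test (1.42.0), limma-voom (3.58.1), a fit of unfiltered counts, a filter of 1 CPM in 8 libraries, only the groups compared, a replicate block, the serotonin neuron score as covariate, and omission of each library. The oligodendrocyte score, and omission of wild-type naive 2 with knockout morphine 3, were chosen after seeing the data. Promoters came from RefSeq. Some channel genes that enter the counts and family sums are not reported here by name.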

Additional observations from a re-analysis of the deposited data

Results flagged for a closer look

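In all, 6 of 160 gene and group combinations held a library set apart from the others of its group, no more than the about 1 in 20 that chance gives. The gap to the nearest other library was at least 0.832 of the group's whole range in each. This ratio is relative to the group's own range, so a small gap can give a high value. Knockout morphine 3 had 228 CPM of Cacna2d1, against 273 to 276 CPM in the other libraries of its group (ratio 0.945). The same library had 19.7 CPM of Cacng5, an AMPA receptor partner, against 27.4 to 28.3 CPM (ratio 0.895). Knockout naive 3 had 24.9 CPM of Cacng5, against 22.2 to 22.3 CPM (ratio 0.951). Wild-type morphine 1 had 101 CPM of Scn3a, against 93.2 to 94.4 CPM (ratio 0.84). Wild-type naive 1 had 42.0 CPM of Scn9a, against 30.6 to 32.2 CPM (ratio 0.859). Wild-type naive 4 had 200 CPM of Cacna2d1, against 253 to 263 CPM (ratio 0.832).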

How the results depend on the processing

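With morphine in knockout libraries the count of called channel genes was 10 as reported (11.5% of all genes). It was 10 with DESeq2's size factors (11.6%), limma-voom (11.2%) or the replicate block (9.56%), 8 with no filter (5.48%), 11 with the filter of 1 CPM in 8 libraries (14.6%), 12 in a fit of only the groups compared (11.1%) and 13 with DESeq2's Wald test (14.5%). It was 1 with the serotonin neuron score (1.96%), 1 with the oligodendrocyte score (3.9%) and 21 without the 2 libraries of high meningeal score (14.8%), and 6 to 20 when each library was left out (1037 to 2341 genes of all, against 2082). In wild-type libraries it was 0 and became 1 with the oligodendrocyte score (Cacna1d, -0.14, adjusted p = 0.0303), where 6.92% of all genes were called. It was 0 to 1 there when each library was left out. Between genotypes under morphine it was 0, and 1 without the 2 libraries (Scn3a, 0.28, adjusted p = 0.0306), where 1.3% of all genes were called. It was 0 to 1 when each library was left out, as for the interaction. For morphine averaged over genotypes it was 9 (17.1% of all genes), against 0 with the serotonin neuron score (2.73%) and 5 with the oligodendrocyte score (18.3%). It was 14 without the 2 libraries (17.4%), and 6 to 12 when each library was left out (2399 to 3302 genes of all, against 3089). The naive genotype comparison and the genotype average gave 0 under every alternative run for them. Scn8a had 0.0008103 on the log2 scale with the oligodendrocyte score in knockout libraries, against -0.25 without it. The cause of these shifts was not tested.

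No pairing by replicate number was seen. Deviations from the group mean correlated at -0.283 to 0.133 between same-numbered libraries of different groups, and at -0.207 to 0.254 between differently numbered ones. A batch shared by libraries of any number was not tested. With the number as a block, Cacna2d1 lost its call in knockout libraries (adjusted p = 0.0581) and Cacna1i gained one, and all called genes numbered 1732, against 2082 without the block. In the average over genotypes the block left 8 calls, where 15.2% of all genes were called. There Cacna1g (adjusted p = 0.0575) and Cacng3 (adjusted p = 0.0535) lost theirs and Scn2a gained one. Counting error limits Scn11a (4 to 18 counts) most, and differences smaller than the intervals shown were not detectable with 4 libraries a group.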
